A study of Mus musculus with 12 samples.

Results

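This account describes 10 transcription factor genes of blood and endothelial progenitors, Etv2, Tal1, Lmo2, Fli1, Erg, Gata2, Runx1, Hhex, Spi1 and Ikzf1, in 3 cell populations sorted from E7.5 mouse embryos. The genes were taken by their Ensembl IDs, and all 10 had a row among the 22400 genes of the deposited gene-level table. All embryos carried a Foxf1::venus knock-in on a C57BL/6 background, in which the fluorescent protein VENUS reports the forkhead gene Foxf1. Cells were sorted for VENUS and for FLK1, a receptor for vascular endothelial growth factor that marks mesodermal precursors of vessels and blood. The populations were double-positive cells (labelled Flk-pos Foxf1-pos), FLK1-single-positive cells (Flk-pos Foxf1-neg) and FOXF1-single-positive cells (Flk-neg Foxf1-pos). Each population was measured on 2 arrays, from sort 1 and sort 2 of 50 cells each, and no population without the knock-in was included. The sources used here do not say which embryos entered a sort or whether they carried the knock-in on both chromosomes.

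In the gastrulating mouse embryo, precursors of blood and endothelium arise in FLK1-positive mesoderm. The ETS factor Etv2 acts at the top of this programme, and Tal1, Lmo2 and Gata2 encode proteins that meet in a shared DNA-bound complex in blood and endothelial precursors. Fli1 and Erg are further ETS factors of endothelium and blood, while Runx1, Spi1 and Ikzf1 are best known for later steps of blood formation, and Hhex is a homeobox gene of early endothelial, blood and endodermal precursors.

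Array medians lay between 6.00 and 6.07 log2 units, and the median SD between the sorts of a population was 0.186 over all genes. The values are deposited log2 signals without detection calls, so low signals are not read as absence, and folds against them are of the deposited signal. The FOXF1 label of the double-positive cells carries a doubt. The row ENSMUSG00000042812, whose name the sources used here do not pair with the ID, had log2 signals of 4.35 and 4.81 in double-positive cells, 4.71 and 4.43 in FLK1-single-positive cells, and 8.51 and 7.91 in FOXF1-single-positive cells. If it is Foxf1, the RNA does not separate the FLK1-positive populations, whereas the sort read the VENUS protein. Values that leave out the double-positive arrays are given below for that reason.

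Of the 10 genes, 5 were called higher in the FLK1-positive populations than in FOXF1-single-positive cells. With both FLK1-positive populations (4 arrays) set against FOXF1-single-positive cells (2 arrays), Etv2, Lmo2, Gata2, Hhex and Ikzf1 were higher at an adjusted p under 0.05 in limma, and none of the 10 was called lower. Tal1, Fli1, Erg, Runx1 and Spi1 gave no call. The gene-level values of Gata2 and Hhex equal different probe sets in FLK1-positive and FOXF1-single-positive arrays, as described below, so their calls do not compare like with like. For Etv2 and Lmo2, probe sets that were not recovered enter the FOXF1-single-positive values. The test called 0.393% of the 22400 genes higher. The median difference over the 10 genes was 1.81 log2 units, beside -0.00179 over all genes, and it ran from 0.01 for Spi1 to 2.76 for Lmo2. The arrays of the FLK1-positive and the FOXF1-single-positive cells did not overlap for 7 of the 10 genes, the exceptions being Erg, Runx1 and Spi1. Of all genes, 7.28% were higher without overlap. The 7 genes and the median of 1.81 include Gata2 and Hhex, so they share the limit of those rows. Fli1 and Tal1 are also among the 7, and no recovered probe set explains their FOXF1-single-positive values. Within probe sets 5430785 of Gata2 and 5412747 of Hhex the arrays overlapped, while within 5101294 and 4695773 they did not. In such bulk samples, fewer cells of a type and less RNA per cell cannot be told apart.

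**Figure D1:**
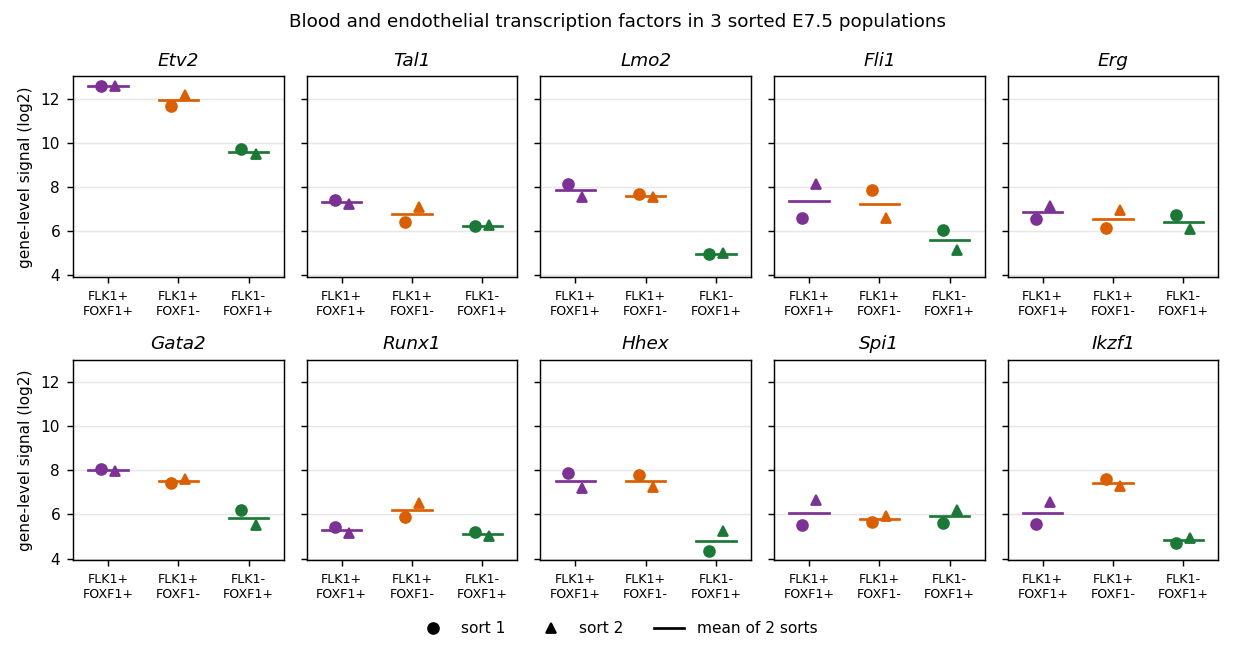
Gene-level log2 signal (vertical axis) of the 10 genes in double-positive (FLK1+ FOXF1+), FLK1-single-positive and FOXF1-single-positive cells, with circles for sort 1, triangles for sort 2 and a line at the mean of the 2 sorts. In this gene-level signal, Etv2, Lmo2, Gata2 and Hhex are high in both FLK1-positive populations. Ikzf1 is highest in FLK1-single-positive cells, and Erg and Spi1 overlap in all 3. The Gata2 and Hhex values come from different probe sets in FLK1-positive and FOXF1-single-positive cells.

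The 250 bases before an annotated start are shown for Etv2, Hhex and Ikzf1, which were among the genes called higher with both FLK1-positive populations pooled. They are from RefSeq, build GRCm38.p6, at chr7:30635853-30636102 on the minus strand for Etv2, chr19:37434591-37434840 on the plus strand for Hhex and chr11:11689927-11690176 on the plus strand for a downstream start of Ikzf1. Capitals mark the letters GGAAG on either strand, a form of the site that ETS factors bind. Other forms of that site were not searched and are not marked.
Etv2: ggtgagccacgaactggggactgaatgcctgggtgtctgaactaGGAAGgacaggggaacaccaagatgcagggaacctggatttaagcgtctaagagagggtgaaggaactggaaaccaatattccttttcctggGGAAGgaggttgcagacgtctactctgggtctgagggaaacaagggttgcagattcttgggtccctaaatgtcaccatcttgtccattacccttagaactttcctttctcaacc
Hhex: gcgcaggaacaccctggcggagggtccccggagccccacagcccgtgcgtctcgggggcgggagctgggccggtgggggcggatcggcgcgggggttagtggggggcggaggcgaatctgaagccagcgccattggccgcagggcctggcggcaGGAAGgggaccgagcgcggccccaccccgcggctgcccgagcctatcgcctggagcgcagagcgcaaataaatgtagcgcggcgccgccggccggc
Ikzf1: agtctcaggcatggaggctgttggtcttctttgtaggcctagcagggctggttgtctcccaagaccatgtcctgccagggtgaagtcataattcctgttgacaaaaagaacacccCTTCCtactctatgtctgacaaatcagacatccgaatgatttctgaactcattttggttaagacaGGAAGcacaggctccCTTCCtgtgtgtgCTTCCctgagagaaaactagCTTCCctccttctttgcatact
The Etv2 window held 2 such matches, the Hhex window 1 and the Ikzf1 window 5, while the other Ikzf1 window had 0. Over the 32851 promoter windows of this length, 64.1% held at least 1, so a match is common. The GATA letters AGATAA and the E-box CANNTG, searched on both strands, matched in none of these 3 windows, against 9.99% and 66.2% of all windows. No motif searched overlapped another in the members' windows. Of the 10 genes, 7 had promoter entries, with 13 windows in all. GGAAG was found in 7 of the 13, AGATAA in 2 (a start of Tal1 and a start of Erg) and CANNTG in 2. The 2 windows of Gata2 held none of the 3. These are letter matches, and no binding was measured.

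Etv2 (ENSMUSG00000006311), the ETS factor that starts the endothelial and blood programme, was higher in both FLK1-positive populations than in FOXF1-single-positive cells. Its log2 signal was 12.59 and 12.62 in double-positive cells, 11.69 and 12.21 in FLK1-single-positive cells, and 9.72 and 9.51 in FOXF1-single-positive cells. The FOXF1-single-positive arrays lay below all FLK1-positive ones without being at the bottom of the scale, which starts at 3.11. The difference was 2.99 ± 0.24 log2 units (SE) for double-positive against FOXF1-single-positive cells, a 7.92-fold difference on the deposited scale (limma, adjusted p = 0.00751). It was 2.33 ± 0.24 for FLK1-single-positive against FOXF1-single-positive cells (adjusted p = 0.0127).

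The exon-level table shows which probe sets stand behind a gene-level value, and for Etv2 both that could be recovered were lower in FOXF1-single-positive cells. A probe set was taken as recovered where the gene-level value equalled it to 1.1e-05 log2 units on at least 2 arrays, or equalled its midpoint with another on at least 3. Over all genes, 56.4% had a probe set equal on at least 2 arrays, against 0.00446% with the arrays shifted by 1. For 8 of the 10 genes this gave 14 probe sets in all, and for Tal1 and Runx1 none. Which probe sets can be recovered depends on the values, so their differences are given without a p. The Etv2 value in the 4 FLK1-positive arrays was the midpoint of probe sets 5024747 and 5094270. In both FOXF1-single-positive arrays it did not equal this midpoint, so other probe sets enter the gene-level difference there. Probe set 5024747 read 12.76 and 13.02 in double-positive, 12.68 and 12.92 in FLK1-single-positive, and 11.32 and 11.54 in FOXF1-single-positive cells. Probe set 5094270 read 12.42 and 12.22 in double-positive, 10.71 and 11.50 in FLK1-single-positive, and 7.73 and 8.07 in FOXF1-single-positive cells. The Etv2 probe sets thus differed by 1.42 ± 0.22 and 3.81 ± 0.29 log2 units (SE) between both FLK1-positive populations and FOXF1-single-positive cells.

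Lmo2 (ENSMUSG00000032698), which encodes the bridging LIM protein of the Tal1 complex, was the other gene called in each comparison with FOXF1-single-positive cells. Its log2 signal was 8.15 and 7.58 in double-positive cells, 7.68 and 7.57 in FLK1-single-positive cells, and 4.95 and 5.03 in FOXF1-single-positive cells. The FOXF1-single-positive arrays were far below the rest, and the FLK1-positive populations overlapped. The difference from FOXF1-single-positive cells was 2.88 ± 0.25 log2 units (SE) for double-positive cells (7.34-fold, limma adjusted p = 0.00751) and 2.63 ± 0.25 for FLK1-single-positive cells (6.21-fold, adjusted p = 0.00891).

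The recovered Lmo2 probe sets did not behave alike. The gene-level value in the 4 FLK1-positive arrays was the midpoint of probe sets 5160925 and 4353258. Probe set 5160925 read 8.20 and 7.16 in double-positive, 7.08 and 7.33 in FLK1-single-positive, and 4.65 and 4.53 in FOXF1-single-positive cells. Probe set 4353258 read 8.10 and 8.00 in double-positive, 8.28 and 7.81 in FLK1-single-positive, and 8.45 and 8.74 in FOXF1-single-positive cells. It was thus slightly higher in the FOXF1-single-positive arrays, with no overlap. Their differences between both FLK1-positive populations and FOXF1-single-positive cells were 2.85 ± 0.32 and -0.54 ± 0.23 log2 units (SE). The FOXF1-single-positive Lmo2 values did not equal this midpoint, so other probe sets enter the gene-level difference there.

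Gata2 (ENSMUSG00000015053), a zinc-finger factor of the same complex and of early blood progenitors, was called higher in double-positive cells when set against FOXF1-single-positive cells. Its log2 signal was 8.09 and 7.99 in double-positive cells, 7.45 and 7.60 in FLK1-single-positive cells, and 6.21 and 5.50 in FOXF1-single-positive cells. The 3 populations did not overlap. The difference was 2.18 ± 0.27 log2 units (SE) for double-positive against FOXF1-single-positive cells (4.53-fold, limma adjusted p = 0.0340). That call was lost with only those populations fitted (limma adjusted p = 0.0837) and with sort number as a block (0.0531). It was also lost in all 6 fits that left out 1 array, with differences from 1.83 to 2.53 log2 units. Of these, the fits without a FLK1-single-positive array repeat the fit with only those populations and add nothing to it. For FLK1-single-positive against FOXF1-single-positive cells the difference was 1.67 ± 0.27 and missed the threshold (adjusted p = 0.0656).

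For Gata2 the gene-level row carried a different probe set in FLK1-positive and in FOXF1-single-positive arrays. In all 4 FLK1-positive arrays it equalled probe set 5430785, and in both FOXF1-single-positive arrays it equalled probe set 5101294. Probe set 5101294 read 9.81 and 9.63 in double-positive, 10.72 and 10.22 in FLK1-single-positive, and 6.21 and 5.50 in FOXF1-single-positive cells. Probe set 5430785 read 8.09 and 7.99 in double-positive, 7.45 and 7.60 in FLK1-single-positive, and 8.06 and 7.92 in FOXF1-single-positive cells. Within a probe set, the difference of both FLK1-positive populations from FOXF1-single-positive cells was therefore 4.24 ± 0.29 log2 units (SE) for 5101294 and -0.21 ± 0.20 for 5430785. The gene-level difference of 1.92 ± 0.24 sets the values of separate probe sets against each other.

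Hhex (ENSMUSG00000024986) was higher in both FLK1-positive populations than in FOXF1-single-positive cells, with a call in 1 of the 2 pairs. Its gene-level log2 signal was 7.88 and 7.20 in double-positive cells, 7.81 and 7.24 in FLK1-single-positive cells, and 4.34 and 5.23 in FOXF1-single-positive cells. The FLK1-positive populations overlapped and both lay above the FOXF1-single-positive arrays. The gene-level difference was 2.74 ± 0.38 log2 units (SE) for FLK1-single-positive against FOXF1-single-positive cells (limma adjusted p = 0.0357). That call was lost with only those populations fitted (limma adjusted p = 0.0728) and with sort number as a block (0.0630). It was also lost in all 6 fits that left out 1 array, with differences from 2.30 to 3.19 log2 units. Of these, the fits without a double-positive array repeat the fit with only those populations and add nothing to it. For double-positive against FOXF1-single-positive cells the difference was 2.76 ± 0.38 (adjusted p = 0.0515), just short of the threshold.

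The Hhex row equalled probe set 5412747 in the 4 FLK1-positive arrays and probe set 4695773 in both FOXF1-single-positive arrays. Probe set 4695773 read 10.78 and 10.97 in double-positive, 10.63 and 10.97 in FLK1-single-positive, and 4.34 and 5.23 in FOXF1-single-positive cells. These FLK1-positive values lay within 0.35 log2 units of each other. Probe set 5412747 read 7.88 and 7.20 in double-positive, 7.81 and 7.24 in FLK1-single-positive, and 7.90 and 6.80 in FOXF1-single-positive cells, and overlapped in all 3 populations. The differences of both FLK1-positive populations from FOXF1-single-positive cells were 6.05 ± 0.30 log2 units (SE) for 4695773 and 0.18 ± 0.39 for 5412747. The gene-level difference of 2.75 ± 0.33 lies between them and compares separate probe sets.

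**Figure D2:**
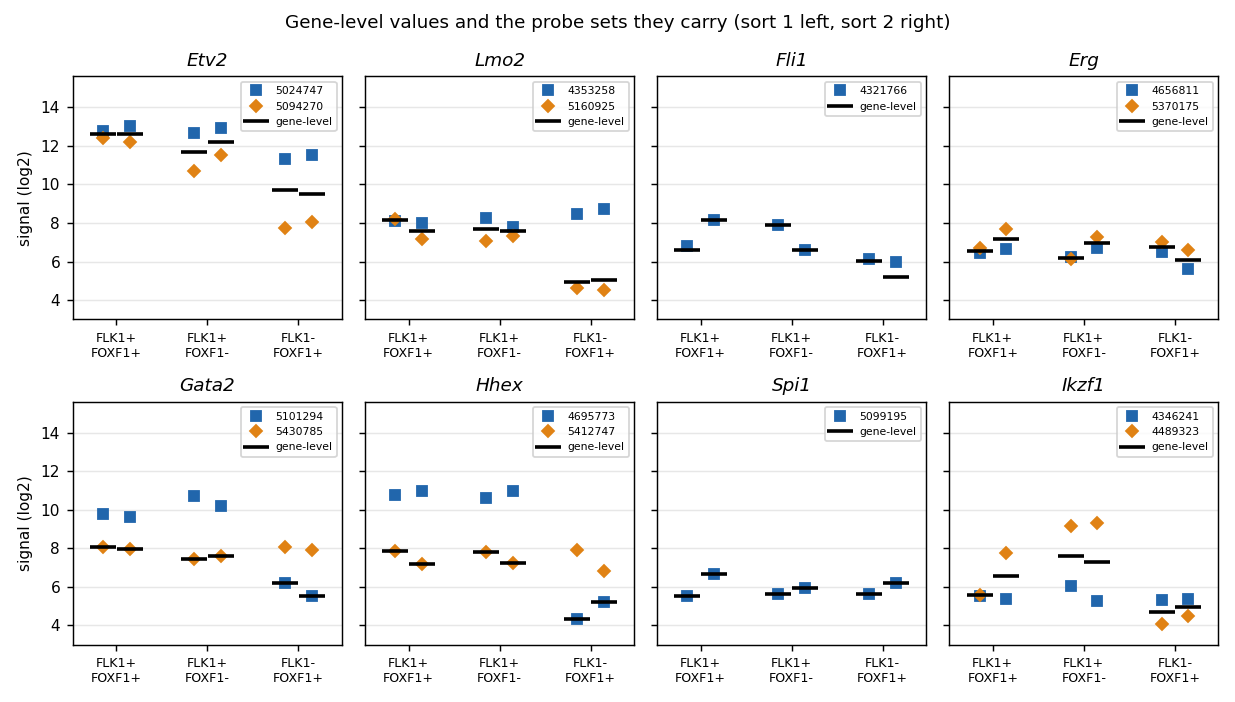
Log2 signal (vertical axis) of the 14 recovered exon-level probe sets (squares and diamonds, named by number) and of the gene-level row (black bars) in double-positive, FLK1-single-positive and FOXF1-single-positive cells, sort 1 to the left of sort 2. For Gata2 and Hhex the black bar sits on the diamonds in FLK1-positive cells and on the squares in FOXF1-single-positive cells.

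Ikzf1 (ENSMUSG00000018654), the Ikaros zinc-finger factor of blood cells, was highest in FLK1-single-positive cells. Its log2 signal was 5.56 and 6.57 in double-positive cells, 7.61 and 7.29 in FLK1-single-positive cells, and 4.70 and 4.95 in FOXF1-single-positive cells. The 3 populations did not overlap, with the double-positive cells between the others. FLK1-single-positive cells exceeded FOXF1-single-positive cells by 2.63 ± 0.35 log2 units (SE, 6.17-fold, limma adjusted p = 0.0298). Double-positive cells exceeded FOXF1-single-positive cells by 1.24 ± 0.35 (adjusted p = 0.487).

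The Ikzf1 signal on 5 of the 6 arrays was the midpoint of probe sets 4489323 and 4346241. Probe set 4489323 read 5.58 and 7.77 in double-positive, 9.14 and 9.34 in FLK1-single-positive, and 4.07 and 4.50 in FOXF1-single-positive cells. Probe set 4346241 stayed between 5.28 and 6.07 on all 6 arrays. Probe set 4489323 differed by 4.95 ± 0.67 log2 units (SE) between FLK1-single-positive and FOXF1-single-positive cells, and the double-positive sorts were 2.19 log2 units apart on it.

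Tal1 (ENSMUSG00000028717), the basic helix-loop-helix factor that binds DNA in the complex with Lmo2 and Gata2, gave no call. Its log2 signal was 7.43 and 7.25 in double-positive cells, 6.44 and 7.11 in FLK1-single-positive cells, and 6.24 and 6.28 in FOXF1-single-positive cells. The populations did not overlap, but the lowest FLK1-positive array was 0.16 log2 units above the highest FOXF1-single-positive one. The double-positive cells exceeded the FOXF1-single-positive cells by 1.08 ± 0.27 log2 units (SE, limma adjusted p = 0.369).

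The remaining ETS factors gave no call. Fli1 (ENSMUSG00000016087) was at 6.59 and 8.15 log2 units in double-positive cells, 7.90 and 6.61 in FLK1-single-positive cells, and 6.05 and 5.18 in FOXF1-single-positive cells. Both FLK1-positive populations lay above the FOXF1-single-positive arrays but spread by over 1 log2 unit between sorts. Fli1 differed by 1.70 ± 0.53 (SE) between both FLK1-positive populations and FOXF1-single-positive cells (limma adjusted p = 0.452, 95% interval 0.46 to 2.93). The Fli1 row equalled its recovered probe set 4321766 on 3 FLK1-positive arrays and on neither FOXF1-single-positive array. Other probe sets thus enter the gene-level difference. Within 4321766 the difference was 1.31 ± 0.49 log2 units (SE). Erg (ENSMUSG00000040732) ran from 6.57 to 7.17 in double-positive, 6.17 to 6.98 in FLK1-single-positive and 6.09 to 6.74 in FOXF1-single-positive cells, with overlap throughout. Spi1 (ENSMUSG00000002111), which encodes the myeloid and lymphoid factor PU.1, ran from 5.51 to 6.64 in double-positive, 5.65 to 5.93 in FLK1-single-positive and 5.62 to 6.22 in FOXF1-single-positive cells, again with overlap. The 95% interval of the difference between both FLK1-positive populations and FOXF1-single-positive cells was -0.45 to 1.06 log2 units for Erg and -0.79 to 0.82 for Spi1. The Spi1 row equalled probe set 5099195 on all 6 arrays, so it rests on a single probe set.

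Runx1 (ENSMUSG00000022952), the factor needed for definitive blood cells to form, was highest in FLK1-single-positive cells but gave no call. Its log2 signal was 5.43 and 5.14 in double-positive cells, 5.88 and 6.54 in FLK1-single-positive cells, and 5.19 and 5.03 in FOXF1-single-positive cells. The FLK1-single-positive arrays were above the other 4. They exceeded the FOXF1-single-positive arrays by 1.10 ± 0.27 log2 units (SE, limma adjusted p = 0.263).

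Counted by pair, 3 of the 10 genes were called higher in double-positive than in FOXF1-single-positive cells (Etv2, Lmo2 and Gata2), where the test called 0.219% of all genes higher. The arrays did not overlap for 7 of the 10, all higher, beside 15.5% of all genes. In FLK1-single-positive against FOXF1-single-positive cells, 4 of the 10 were called higher (Etv2, Lmo2, Hhex and Ikzf1), where the test called 0.357% of all genes higher. The arrays did not overlap for 8 of the 10, all higher, beside 17.3%. The Gata2 and Hhex entries in these counts, of calls and of arrays without overlap, set separate probe sets against each other. Without their calls, the counts of calls are 2 and 3. For Etv2 and Lmo2, which remain, probe sets that were not recovered enter the FOXF1-single-positive values. The Ikzf1 value of FLK1-single-positive sort 2 was not explained by its recovered probe sets either. The remaining calls are thus not shown to compare like with like. The counts of arrays without overlap also include Fli1 and Tal1. The FOXF1-single-positive values of Fli1 were not explained by its recovered probe set, and Tal1 had none. Runx1, which also had none, enters that count for FLK1-single-positive against FOXF1-single-positive cells. These comparisons share the FOXF1-single-positive arrays, so their calls are not independent of each other. Fitted without the double-positive arrays, the last comparison called Etv2, Lmo2 and Ikzf1, and Hhex had an adjusted p of 0.0728.

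**Figure D3:**
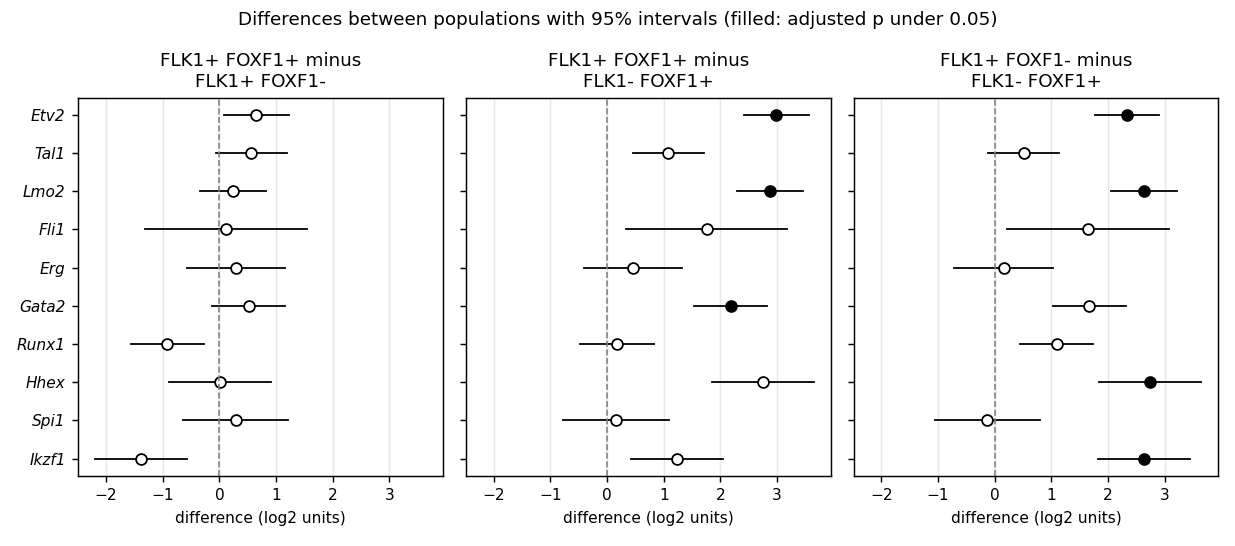
Difference in log2 signal (horizontal axis, with 95% interval) of each gene for double-positive minus FLK1-single-positive cells, double-positive minus FOXF1-single-positive cells and FLK1-single-positive minus FOXF1-single-positive cells, filled where the adjusted p was under 0.05. No point is filled in the first panel, 3 in the second and 4 in the third, all of them above 0.

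Between the FLK1-positive populations, sorted as VENUS-positive or VENUS-negative, none of the 10 genes passed the threshold. The test called 0% of all genes in either direction, and 4.67% of them had an unadjusted limma p under 0.05. At that unadjusted level there were 3 of the 10 genes, with Etv2 higher and Runx1 and Ikzf1 lower in double-positive cells. The arrays did not overlap for Etv2, Tal1 and Gata2, higher in double-positive cells (3 of 10, beside 15.7% of all genes), and for Runx1 and Ikzf1, lower there (2 of 10, beside 16.3%). Ikzf1 differed by -1.39 ± 0.35 log2 units (SE, limma adjusted p = 0.636, 95% interval -2.20 to -0.57), and Runx1 by -0.92 ± 0.27 (adjusted p = 0.866, -1.57 to -0.28). Etv2 differed by 0.65 ± 0.24 (adjusted p = 0.9999, 0.08 to 1.23). For Lmo2 the interval was -0.34 to 0.82 and for Hhex -0.89 to 0.91, which are the differences these arrays leave possible. Ikzf1 and Runx1, with differences beyond those bounds, gave no call either. The recovered Gata2 probe sets went opposite ways here, by -0.75 ± 0.33 for 5101294 and 0.51 ± 0.23 for 5430785. Etv2 differed by 1.21 ± 0.33 within 5094270, without overlap, and by 0.09 ± 0.25 within 5024747, with overlap. Ikzf1 differed by -2.56 ± 0.67 within 4489323, without overlap, and by -0.23 ± 0.32 within 4346241, with overlap. The Ikzf1 value of FLK1-single-positive sort 2 was not explained by these probe sets. For Tal1 and Runx1 no probe set was recovered.

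The calls rest on 2 arrays a population, and several were lost when 1 array was left out. Leaving out an array keeps the same gene-level values. For Etv2, Lmo2, Gata2 and Hhex it therefore cannot test the other probe sets that enter the FOXF1-single-positive values. In the comparison of both FLK1-positive populations with FOXF1-single-positive cells, Etv2 and Lmo2 were called in each of the 6 such fits by limma, with adjusted p up to 0.0444 and 0.0411. Gata2 was called in 1 of them, the fit without FOXF1-single-positive sort 1, and otherwise had an adjusted p of 0.0734 to 0.103. Hhex was lost without double-positive sort 1 (0.0806), FLK1-single-positive sort 1 (0.0692) or FOXF1-single-positive sort 1 (0.122). Ikzf1 was called without double-positive sort 1, and lost with an adjusted p of 0.0680 to 0.273 when any 1 of the other 5 arrays was left out.

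The calls of single pairs of populations were also lost in some of these fits. For double-positive against FOXF1-single-positive cells, Etv2 was lost without either double-positive array (limma adjusted p = 0.105 and 0.0938) or FOXF1-single-positive sort 2 (0.0544). Lmo2 was lost there without double-positive sort 1 (0.0911) or either FOXF1-single-positive array (0.0646 and 0.0594). For FLK1-single-positive against FOXF1-single-positive cells, Etv2 was lost without FLK1-single-positive sort 2 (0.0758) or either FOXF1-single-positive array (0.0644 and 0.0838). Lmo2 and Ikzf1 were lost when any 1 of the 4 arrays compared was left out (0.0610 to 0.0662 and 0.127 to 0.175). Fits with an array less also have fewer residual degrees of freedom, and the part of this in the losses was not tested.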

How the data were processed

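RNA of 50 sorted cells per sample was amplified with the SuperAmp kit and hybridised to Affymetrix mouse exon arrays, per the labels' protocols. Of the 12 deposited samples, 6 hold gene-level and 6 exon-level values of the same arrays, which count as 6 samples. The deposited values are log2 signals, per the values' range, for which Affymetrix Power Tools and RMA are named, without versions, per the submitters' processing notes. RMA tends to compress large differences. They were used unchanged. The arrays' number limits the precision.

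A model with a mean per population was fitted to all 22400 gene rows and 6 arrays with limma 3.58.1 (lmFit, eBayes; R 4.3.3), with 3 residual and 4.27 prior degrees of freedom. Each of 4 contrasts was tested two-sided at 0.05 after Benjamini-Hochberg adjustment across all rows. Exon-level rows were fitted in the same way, an addition made after the data were seen. In 20 simulated sets for both FLK1-positive populations against FOXF1-single-positive cells, 200 of 22400 genes were changed. There limma found 8.90% of those changed by 1 log2 unit and 87.2% of those changed by 2, and 5.41% of its calls were false. The noise was drawn independently from limma's own fitted prior, without shared sort effects or a change of probe set between groups. These shares therefore do not show how far the calls on the real arrays hold. Promoter windows came from a RefSeq table. Figures used matplotlib 3.10.9.

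The genes and lists were chosen with earlier results of these data known. Nothing says that the sorts came from separate embryos, so the p-values measure the spread between these arrays, which may be technical, although the design text calls them biological replicates. All 10 genes were named by rule. The planned lists of partner factors, receptors, erythroid products and markers, the check of Kdr and Foxf1, and the rule for genes of like pattern need names for other IDs, which the tables used here do not pair, so they were not run. Alternatives were renormalization, centring, a filter on dim rows, another prior, fewer populations, a sort block and leaving out each array.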

Additional observations from a re-analysis of the deposited data

How the results depend on the processing

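Of 222 results for single genes under alternatives other than leaving out an array, 213 kept their side of the threshold. None with a call changed sign, 4 results gained a call and 5 lost one. Most of the 222 had no call in the main fit, so the 213 says little about how stable the calls are. Hhex in double-positive against FOXF1-single-positive cells (limma adjusted p = 0.0515) passed after renewed quantile normalization, median centring, the filter on dim rows or an intensity trend, with adjusted p from 0.0426 to 0.0483. In that comparison Gata2 lost its call with sort number as a replicate block (0.0531) or with only those populations fitted (0.0837). In FLK1-single-positive against FOXF1-single-positive cells Hhex did so too (0.0630 and 0.0728), and Ikzf1 lost the call of the pooled comparison with the block (0.0633). With the replicate block, 0, 2, 3 and 4 members were called in the 4 comparisons, against 0, 3, 4 and 5 without it. Across genes, sort 1 minus sort 2 correlated at 0.137, 0.0591 and 0.0975 for the 3 pairs of populations, not each over 0.1, and the sorts were not treated as pairs. Leaving out 1 array at a time called 0 members between the FLK1-positive populations, 0 to 2 in double-positive and 0 to 3 in FLK1-single-positive against FOXF1-single-positive cells, and 2 to 3 with both FLK1-positive populations pooled. The remaining array of a population was taken to vary as the rest do. The filter on dim rows left 8 of the 10 genes. The planned mean of each gene's exon-level probe sets was not run, for lack of a table pairing probe sets with genes. Without detection calls, signal over background is unknown.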
